A study of Mus musculus with 2 samples.

Results

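The 7 Ets family genes *Spi1*, *Spib*, *Ets1*, *Erg*, *Fli1*, *Etv6* and *Elf1* were followed through early T-cell differentiation *in vitro*. They were chosen by name, with no threshold on their level, and are 7 of the 28692 genes in the count matrices. Single-cell RNA sequencing (10X Chromium) was run on 2 libraries, FL001 and FL002. Both came from E13.5 CD1 wild-type mouse embryos. Fetal liver was depleted of TER-119+ erythroid cells and sorted for Sca-1+ cKit+ hematopoietic stem and progenitor cells, which were grown in coated wells. The coating held DL4 at 10 µg/mL, which activates Notch, and VCAM-1 at 2.32 µg/mL, to which the cells adhere. The labels give the 2 libraries the same description, and the study states that freshly sorted cells and cells of more than 1 culture time were captured, without saying which library holds which. FL001 and FL002 were therefore treated as 2 separate samples, not as replicates of a group, and no test between libraries was possible. Nothing in the labels gives the number of embryos behind a library.

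Ets proteins share a DNA-binding domain that recognizes sites built around the bases GGAA, so members can compete for or share the same sites. *Spi1* encodes PU.1, which drives myeloid and B-cell programs and is made by the earliest thymic progenitors, then shut down as cells commit to the T lineage. *Spib* encodes the closely related Spi-B, *Ets1* is a factor of maturing lymphocytes, *Erg* and *Fli1* are a closely related pair used by hematopoietic stem cells and megakaryocytes, *Etv6* encodes a repressor that stem cells need in the adult marrow, and *Elf1* is made by most blood cells.

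After barcodes with fewer than 1500 UMIs, fewer than 500 genes or more than 10% mitochondrial UMIs were left out, FL001 held 1788 cells (median 7722 UMIs) and FL002 held 4100 cells (median 4752.5 UMIs). The cells that were kept carried 92.7% of the UMIs in FL001 and 94.0% in FL002, and 10 barcodes were kept in both libraries. Cells were placed in 6 gates on raw UMIs, and a cell could be in several. Deeper cells reach such minimums more easily. The progenitor gate (428 cells in FL001, 724 in FL002) required at least 2 UMIs of *Lmo2* and *Mef2c* together and at most 1 of *Cd3g*. The myeloid gate (59 and 59 cells) required at least 5 UMIs of the granule genes *Elane*, *Ctsg*, *Ms4a3* and *Lyz2*. The low *Cd3g* gate (381 and 1134 cells) held cells with at most 2 *Cd3g* UMIs and at most 1 of *Lmo2* and *Mef2c*. The *Cd3g* gate without *Il2ra* (327 and 873 cells) required at least 3 *Cd3g* UMIs and 0 of *Il2ra*, the gene of CD25, and the *Il2ra* gate (738 and 1668 cells) at least 1 *Il2ra* UMI. The commitment gate (451 and 501 cells) required at least 2 UMIs of *Ptcra*, *Lef1* and *Bcl11b* together. In FL001 33.2% of cells were in more than 1 gate, and in FL002 20.98%. The progenitor and commitment gates shared 3 cells in FL001 and 2 in FL002, and most of the myeloid gate (40 and 37 cells) was also in the progenitor gate. Marker genes that did not define the gates followed their names. All 5 progenitor markers were higher in the progenitor gate than in the other cells, 7 of 7 neutrophil and monocyte markers in the myeloid gate, and 6 of 6 T-lineage markers in the *Cd3g*, *Il2ra* and commitment gates, in both libraries. Markers of other cells were also seen. The 6 B-cell markers summed to 265 CPM (counts of the gene in 1000000 UMIs of the gate's cells) in the progenitor gate of FL001 and 196 in FL002, and to 123 and 137 CPM in the commitment gate. In the myeloid gate of FL001 the 4 megakaryocyte markers summed to 3450 CPM, against 8.91 CPM in FL002. In the progenitor gate these 4 summed to 654 CPM in FL001 and 323 CPM in FL002, against 36.2 and 32.7 CPM in the other cells. The neutrophil and monocyte markers were also seen in the progenitor gate, at 1981 and 1322 CPM. Erythroid markers in the low *Cd3g* gate summed to 312 CPM in FL001 and 5.78 CPM in FL002. The 7 neutrophil and monocyte markers summed to 3360 and 965 CPM in that gate, and 17 and 19 of its cells were also in the myeloid gate. What these cells contributed to the values below was not tested unless a value without them is given.

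*Spi1* was lower and *Ets1* higher in the commitment gate than in the progenitor gate of both libraries, and the order of the gates was nearly the reverse for the 2 genes. Levels are CPM over all cells of the gate, with exact 95% Poisson intervals that cover counting error only. In FL001, *Spi1* was at 241 CPM (205 to 282) in the myeloid gate and 128 CPM (117 to 140) in the progenitor gate. It was at 89.6 CPM in the low *Cd3g* gate, 42.8 in the *Cd3g* gate without *Il2ra*, 42.4 in the *Il2ra* gate and 25.2 CPM (20.3 to 31.0) in the commitment gate. FL002 gave 390 CPM (334 to 452), 178 (165 to 191), 128, 64.5, 67.6 and 40.1 CPM (32.5 to 49.0) for the same gates. The order was the same in both libraries apart from the *Cd3g* gate without *Il2ra* and the *Il2ra* gate, which changed places, and intervals were apart for every other pair of neighbors. Those 2 gates, which share no cells, differed in *Spi1* by a ratio of 0.990 (95% interval 0.797 to 1.24) in FL001 and 1.05 (0.907 to 1.21) in FL002. The progenitor gate was above the commitment gate by 5.08 times (4.05 to 6.44) in FL001 and 4.43 times (3.58 to 5.55) in FL002.

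**Figure D1:**
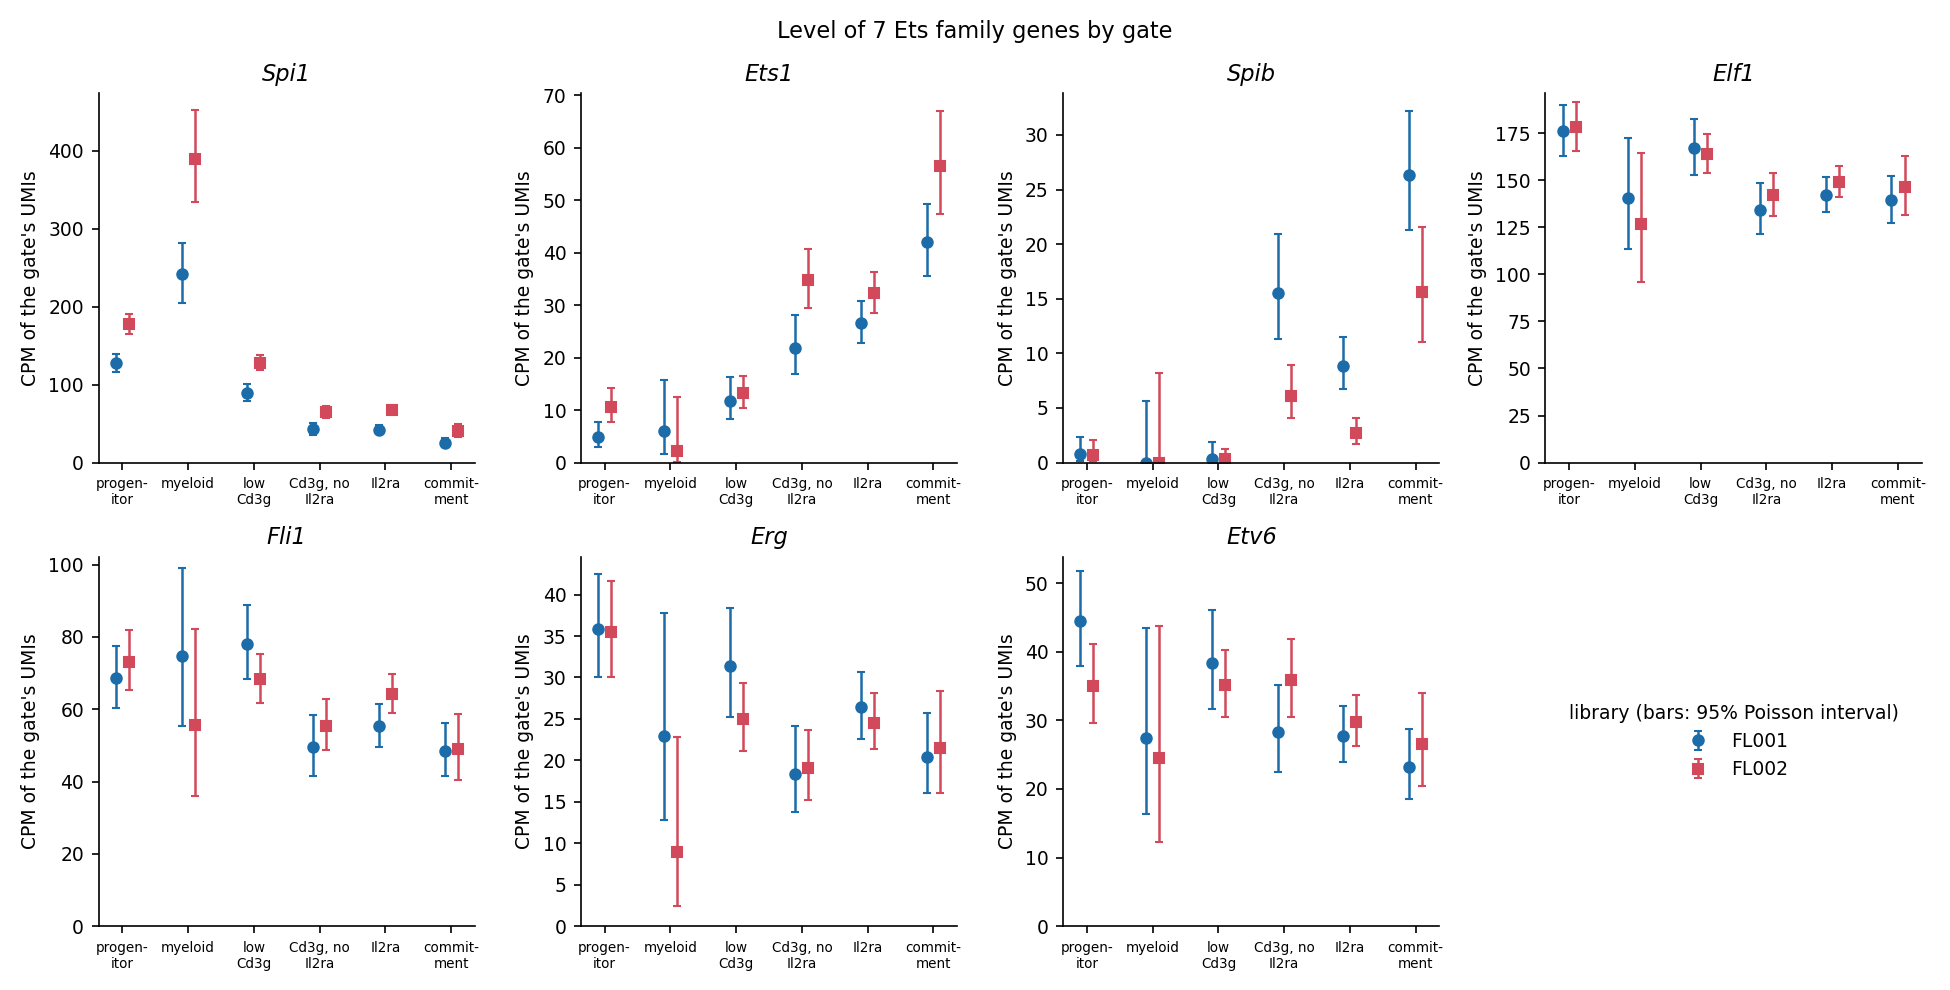
Level of each of the 7 genes (y axis, CPM of the gate's UMIs, each panel on its own scale from 0) in the 6 gates (x axis) of FL001 (blue circles) and FL002 (red squares), with bars for the exact 95% Poisson interval. *Spi1* runs from 241 and 390 CPM in the myeloid gate down to 25.2 and 40.1 CPM in the commitment gate, *Ets1* and *Spib* are highest in the commitment gate, and *Elf1* stays between 127 and 178 CPM.

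*Ets1* had far fewer UMIs than *Spi1* in the early gates. In FL001 it was at 4.86 CPM (2.88 to 7.68, 18 UMIs) in the progenitor gate, 6.11 in the myeloid gate (4 UMIs), 11.8 in the low *Cd3g* gate, 21.9 in the *Cd3g* gate without *Il2ra*, 26.6 in the *Il2ra* gate and 42.0 CPM (35.5 to 49.3, 150 UMIs) in the commitment gate. In FL002 the values were 10.6 CPM (7.73 to 14.2, 45 UMIs), 2.23 (1 UMI), 13.3, 34.8, 32.3 and 56.6 CPM (47.4 to 67.0, 134 UMIs). The commitment gate was above all other gates, with its interval apart from theirs, in both libraries. It exceeded the progenitor gate by 8.64 times (5.28 to 15.0) in FL001 and by 5.34 times (3.79 to 7.67) in FL002. Here too the *Cd3g* gate without *Il2ra* and the *Il2ra* gate had overlapping intervals.

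Because many cells were in both of the later gates, the gates were also split. *Il2ra* gate cells outside the commitment gate (463 and 1377 cells) held *Ets1* at 18.5 and 29.4 CPM, against 42.2 and 47.9 CPM in the 275 and 291 cells that were in both. *Spi1* ran the other way, at 52.3 and 72.3 CPM outside the commitment gate and 22.9 and 42.6 CPM inside. Cells of the *Cd3g* gate without *Il2ra* that were outside the commitment gate (159 cells in FL001, 675 in FL002) had *Ets1* at 6.08 CPM in FL001 and at 25.1 CPM in FL002. Commitment gate cells without *Il2ra* (176 and 210 cells) were at 41.6 and 67.9 CPM of *Ets1* and 28.7 and 36.8 CPM of *Spi1*. With and without *Il2ra*, the cells inside the commitment gate thus had the lower *Spi1* and the higher *Ets1* level in both libraries.

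Set against each other, the 2 genes changed places. *Spi1* made up 96.3% of the summed *Spi1* and *Ets1* UMIs in the progenitor gate of FL001 (exact 95% binomial interval 94.3 to 97.8) and 94.4% in FL002 (92.5 to 95.9). The low *Cd3g* gate was at 88.4% and 90.6%, the *Cd3g* gate without *Il2ra* at 66.1% (58.8 to 72.9) and 65.0% (60.3 to 69.5), and the *Il2ra* gate at 61.5% (56.8 to 66.0) and 67.7% (64.4 to 70.8). In the commitment gate *Spi1* held 37.5% (31.4 to 44.0) and 41.5% (35.0 to 48.2), so that *Ets1* had the larger number of UMIs there. How well each transcript was captured is not known, so the share is read between gates and not as a ratio of the 2 genes' RNA.

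**Figure D2:**
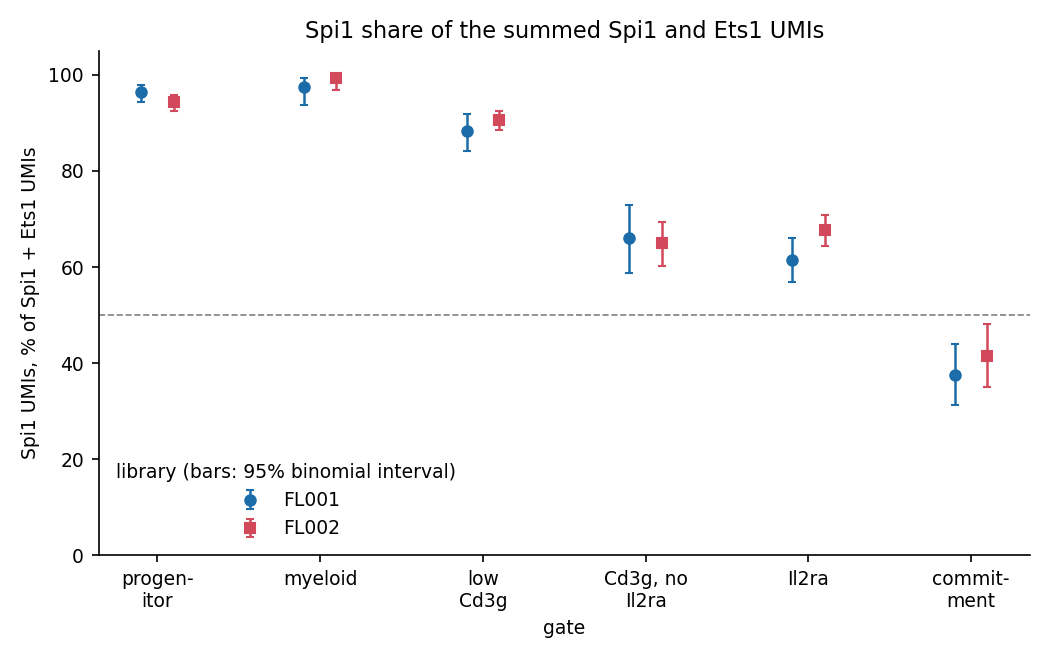
*Spi1* UMIs as a percent of the summed *Spi1* and *Ets1* UMIs (y axis) in each gate (x axis), for FL001 (blue circles) and FL002 (red squares), with bars for the exact 95% binomial interval and a dashed line at equal UMIs. The share stays above 88% in the 3 gates with little *Cd3g*, lies between 61% and 68% in the *Cd3g* and *Il2ra* gates, and is below the line only in the commitment gate, at 37.5% and 41.5%.

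The share of cells with at least 1 *Spi1* UMI gave the same order. It was 86.4% and 93.2% in the myeloid gate, 56.3% and 55.7% in the progenitor gate, 44.6% and 41.9% in the low *Cd3g* gate, 24.8% and 22.1% in the *Cd3g* gate without *Il2ra*, 24.4% and 24.6% in the *Il2ra* gate, and 14.2% and 13.8% in the commitment gate. Depth differed between gates, with a median of 10362 and 7237 UMIs in the myeloid gate, 8014.5 and 5649.5 in the progenitor gate and 6998 and 4175 in the commitment gate. With every cell thinned to 1500 UMIs, which removed the difference in depth, 14.0% and 22.5% of progenitor gate cells and 1.55% and 6.59% of commitment gate cells held *Spi1*. Cells with 3 or more *Spi1* UMIs numbered 54 and 88 in the progenitor gate, 25 and 30 among the 59 cells of each myeloid gate, and 5 and 7 in the commitment gate.

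*Ets1* was found in 24.6% and 22.4% of commitment gate cells, 18.3% and 14.5% of *Il2ra* gate cells, and 3.50% and 5.80% of progenitor gate cells. Thinned to 1500 UMIs, the commitment gate was at 7.98% and 11.2% and the progenitor gate at 0.467% and 1.24%. The myeloid gate, whose neutrophil and monocyte cells should hold little *Ets1*, gave 5.08% and 1.69% unthinned and 1.69% and 0% thinned. These were 3 cells of FL001 and 1 cell of FL002 (exact 95% binomial intervals 1.06% to 14.1% and 0.0429% to 9.09%). The 3 cells of FL001 lay outside the progenitor gate and, summed, held *Cd3g* at 2808 CPM. Of these, 2 were in the low *Cd3g* gate, with at most 2 *Cd3g* UMIs each, so T-lineage RNA was not shown for all 3. None of the 30 and 32 myeloid gate cells with 20 or more granule UMIs held *Ets1*. Whether the progenitor gate was above background in *Ets1* could not be told with so few myeloid cells.

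Free RNA from broken cells adds UMIs to every droplet. In barcodes with 1 to 100 UMIs, which hold no cell, *Spi1* was at 68.3 CPM in FL001 and 75.6 CPM in FL002, and *Ets1* at 18.7 and 30.2 CPM. The granule genes and *Mpo*, which T-lineage cells should not express, limit how much of a gate's RNA can be of this kind. In the commitment gate of FL002 *Mpo* set the limit at 14.5% of UMIs, which would give 10.97 of the 40.1 CPM of *Spi1* and 4.39 of the 56.6 CPM of *Ets1*. In the *Il2ra* gate the limit was 28.7% in FL001 and 23.6% in FL002, or up to 19.6 of 42.4 CPM and 17.9 of 67.6 CPM of *Spi1*. In the commitment gate of FL001 it was 1.10%, though this rested on 1 *Elane* UMI.

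Between the commitment and progenitor gates, 2-fold calls were made on CPM with 10 added, for genes of at least 50 CPM in either gate. Of all genes that passed this minimum, 3.75% in FL001 and 3.05% in FL002 were past 2-fold lower in the commitment gate, and 5.71% and 5.38% past 2-fold higher. Of the 7 Ets genes 3 passed the minimum in FL001 and 4 in FL002. *Spi1* was past 2-fold lower in both (log2 difference -1.97 and -1.91), and *Ets1* was past 2-fold higher in FL002 (1.69), where it passed the minimum only through its level in the commitment gate. In FL001 *Ets1* stayed under the minimum, with a log2 difference of 1.81. *Fli1* and *Elf1* passed the minimum and neither was past 2-fold. Between the *Cd3g* gate without *Il2ra* and the progenitor gate, *Spi1* was again past 2-fold lower (-1.39 and -1.33), where 2.91% and 2.59% of all genes were lower and 4.22% and 3.76% higher. *Fli1* and *Elf1*, the other members above the minimum there, were not past 2-fold. Between the *Il2ra* gate and the *Cd3g* gate without *Il2ra* none of the 2 members above the minimum in FL001 and the 3 in FL002 was past 2-fold, as few genes were at all (0.0961% higher and 0.032% lower in FL001, 0% in FL002).

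*Spib* was close to absent from the early gates and appeared with the commitment genes. The progenitor gate held 3 *Spib* UMIs in each library and the low *Cd3g* gate 1 and 2. The myeloid gate had 0 UMIs in 59 cells of each library, which, at 3 counts, allows a share of cells with a UMI of up to 5.08% and a level of up to 4.58 CPM in FL001 and 6.68 CPM in FL002. In the *Cd3g* gate without *Il2ra* there were 44 and 27 UMIs (15.6 and 6.13 CPM), in the *Il2ra* gate 57 and 23 (8.85 and 2.74 CPM), and in the commitment gate 94 and 37 (26.3 CPM, 21.3 to 32.2, and 15.6 CPM, 11.001 to 21.5). Commitment gate cells that lacked *Il2ra* had *Spib* at 31.5 and 19.4 CPM and those with it at 22.9 and 12.7 CPM. Over the progenitor gate the commitment gate was 32.5 times higher in FL001 (10.8 to 160.3) and 22.1 times higher in FL002 (7.01 to 112), wide ranges set by the 3 UMIs below. Of all cells with a *Spib* UMI, 62 of 73 in FL001 (84.9%) and 28 of 44 in FL002 (63.6%) were in the commitment gate. These were 13.7% and 5.59% of the gate's cells, or 5.99% and 2.40% with cells thinned to 1500 UMIs. In droplets without cells *Spib* was at 8.82 CPM in FL001 and 3.56 CPM in FL002.

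Commitment gate cells with *Spib* were compared with the gate's other cells (389 and 473 cells) by levels whose intervals did not overlap. *Rag1*, which cuts T-cell receptor genes for rearrangement, was at 178 CPM with *Spib* and 37.6 without in FL001, and at 174 and 69.2 CPM in FL002. Of 15 T-lineage genes 11 and 10 reached 50 CPM with or without *Spib*, and 7 in FL001 and 1 in FL002 were higher with *Spib*, beside 5.33% and 1.97% of all genes. In FL001 *Rag1* and *Rag2* (54.9 against 20.1 CPM) were under 50 CPM without *Spib*. They were thus counted only through the cells in which they were higher. The higher genes of FL001 included *Lck*, the kinase of the T-cell receptor signal, at 651 CPM with *Spib* against 377 without. None of the 15 T-lineage genes was lower with *Spib* by intervals apart, where 4.79% and 1.55% of all genes were lower. *Gata3*, a T-cell factor outside that list, was lower with *Spib* in FL001, at 73.2 against 124 CPM with intervals apart. In FL002 it was at 104 and 118 CPM with overlapping intervals. The B-cell marker *Cd79b* was at 60.1 CPM with *Spib* and 7.83 without in FL001, and *Fdx1* at 133 and 263 CPM, with intervals apart. In FL002 *Cd79b* was at 17.4 and 9.76 CPM and *Fdx1* at 183 and 175 CPM, with overlapping intervals. The 23 *Cd79b* UMIs with *Spib* in FL001 lay in 9 cells. *Fabp4* was higher with *Spib* in both libraries, at 196 against 35.4 CPM in FL001 and 148 against 53.7 CPM in FL002, with intervals apart. So was *Ptcra*, one of the gate's own genes, at 651 against 221 and 749 against 400 CPM. Cells with *Spib* were shallower, with a median of 4803 and 3999 UMIs against 7324 and 4245 UMIs. *Ets1* was at 75.8 CPM with *Spib* and 37.9 without in FL001, with intervals apart, but at 52.2 and 56.8 CPM in FL002. *Spi1* was at 10.5 CPM with *Spib* and 26.9 without in FL001 and at 17.4 and 41.3 CPM in FL002, on 4 and 2 UMIs with *Spib* and with overlapping intervals. Only 28 cells of FL002 held *Spib*, so the comparison was the less precise there.

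Promoter sequences from RefSeq (build GRCm38.p6) were at hand for 4 of the 7 genes, *Spib*, *Elf1*, *Erg* and *Etv6*. The windows of *Spib* and of the first start of *Elf1* are shown because these genes had the steepest and the flattest course over the gates. Each is the 250 bases before the transcription start, 5′ to 3′ on the gene's strand, with the Ets core GGAA, or TTCC where the core is on the other strand, in capitals. *Spib* lies on the minus strand at chr7:44532072-44532321 and *Elf1* on the plus strand at chr14:79480944-79481193.
Spib: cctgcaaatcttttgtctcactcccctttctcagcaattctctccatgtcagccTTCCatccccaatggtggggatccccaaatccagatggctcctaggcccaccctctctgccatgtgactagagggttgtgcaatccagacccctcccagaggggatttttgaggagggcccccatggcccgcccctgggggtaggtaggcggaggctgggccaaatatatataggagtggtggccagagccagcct
Elf1: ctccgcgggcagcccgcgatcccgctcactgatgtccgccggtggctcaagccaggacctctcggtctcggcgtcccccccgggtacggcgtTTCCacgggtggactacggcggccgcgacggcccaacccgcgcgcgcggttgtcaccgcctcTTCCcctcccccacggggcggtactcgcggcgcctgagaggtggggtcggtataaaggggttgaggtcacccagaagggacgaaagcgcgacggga
The *Spib* window holds 1 core and the *Elf1* window 2. A core was present in 93.5% of 32851 mouse promoters of this length, with a median of 3, so its presence sets neither gene apart. The longer PU.1-type site GAGGAAGT, found in 2.44% of promoters, was not in the *Spib* window.

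*Erg* and *Etv6* had lower levels in the commitment gate than in the progenitor gate, with smaller differences than *Spi1*. In FL001 *Erg* was at 35.9 CPM in the progenitor gate, 22.9 in the myeloid, 31.3 in the low *Cd3g*, 18.4 in the *Cd3g* gate without *Il2ra*, 26.4 in the *Il2ra* and 20.4 CPM in the commitment gate. In FL002 it was at 35.5, 8.91, 25.0, 19.1, 24.6 and 21.5 CPM. The progenitor gate had the highest *Erg* level in both libraries, and exceeded the commitment gate by 1.76 times (1.31 to 2.37) and 1.65 times (1.19 to 2.31). *Etv6* was at 44.5, 27.5, 38.4, 28.3, 27.8 and 23.2 CPM over the same gates of FL001 and at 35.1, 24.5, 35.2, 35.9, 29.8 and 26.6 CPM in FL002. Its ratio of progenitor to commitment gate was 1.92 (1.46 to 2.53) in FL001, while in FL002 it was 1.32 with an interval (0.976 to 1.80) that included equal levels.

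*Fli1* was at 68.5 CPM in the progenitor gate of FL001 and 48.4 in its commitment gate, and at 73.2 and 49.0 CPM in FL002, a ratio of 1.42 (1.16 to 1.73) and 1.49 (1.204 to 1.87). Its other gates lay between 49.5 and 78.2 CPM in FL001 and between 55.4 and 68.3 CPM in FL002. *Elf1* ran from 176 CPM in the progenitor gate to 139 in the commitment gate of FL001 and from 178 to 147 CPM in FL002, a ratio of 1.26 (1.12 to 1.42) and 1.22 (1.07 to 1.38). Its highest gate exceeded its lowest by 1.31 times in FL001 and 1.40 times in FL002, the narrowest span of the 7 genes. *Elf1* was found in 61.9% to 68.8% of the cells of every gate in FL001 and 46.5% to 59.8% in FL002. For *Erg*, *Fli1*, *Etv6* and *Elf1* the intervals of neighboring gates in the order of levels overlapped, except for *Elf1* in the low *Cd3g* and *Il2ra* gates of FL001 and *Erg* in the progenitor and low *Cd3g* gates of FL002. *Ets1*, *Fli1*, *Etv6* and *Elf1* each overlap an annotated gene on the other strand (*Gm27240*, *Gm27201*, *Gm17088* and *Gm17089*, and *Wbp4*). How reads in these stretches were assigned is not given in the sources used here.

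The 2 libraries differed in *Spi1*. It was higher in FL002 in all 6 gates, with intervals apart in each, by 1.39 times in the progenitor gate, 1.61 in the myeloid, 1.43 in the low *Cd3g*, 1.51 in the *Cd3g* gate without *Il2ra*, and 1.59 times in the *Il2ra* and commitment gates. Over all cells that were kept it was at 70.4 CPM in FL001 and 102 CPM in FL002 (ratio 1.46), and 1.49% of the 3160 genes compared had a ratio at least as high. *Spib* differed the other way, at 6.94 CPM in FL001 and 2.54 CPM in FL002. *Ets1* was at 18.4 and 24.3 CPM, and the other 4 genes had overlapping intervals. The depth, the make-up of the gates and the free RNA also differed between the libraries, and their part in this was not tested.

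Cells outside the myeloid gate were also ordered by the UMIs of *Cd3g*, a chain of the T-cell receptor complex. Between the first and the last bin *Spi1* was lower and *Ets1* and *Spib* were higher in both libraries. *Spi1* in cells with 0, 1 to 2, 3 to 5, 6 to 10 and at least 11 *Cd3g* UMIs was at 98.3, 94.7, 69.7, 40.6 and 32.5 CPM in FL001 and at 144, 121, 71.4, 68.1 and 52.5 CPM in FL002. It was lower in each bin than in the one before it, in both libraries, though the intervals of some neighboring bins overlapped. *Ets1* was at 7.94, 9.68, 15.1, 20.9 and 28.9 CPM in FL001, where the intervals of neighboring bins overlapped. In FL002 it was at 12.7, 11.5, 27.1, 44.8 and 35.1 CPM. It did not rise there within the first and the last pair of bins, whose intervals overlapped. *Spib* was not highest in the last bin, with 0.644, 0.691, 6.97, 18.6 and 11.9 CPM in FL001 and 0.279, 1.11, 2.88, 7.47 and 3.80 CPM in FL002. The bin of 6 to 10 UMIs was the highest in both libraries, though its interval overlapped that of the last bin. It was also the shallowest bin, with a median of 5260 and 3572 UMIs per cell against 8150 and 4879.5 in the last bin. Bins of raw *Cd3g* UMIs sort cells by depth too, and the part of depth in these courses was not tested. *Elf1* went from 177 to 137 CPM in FL001 and from 176 to 144 CPM in FL002 between the first and the last bin.

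**Figure D3:**
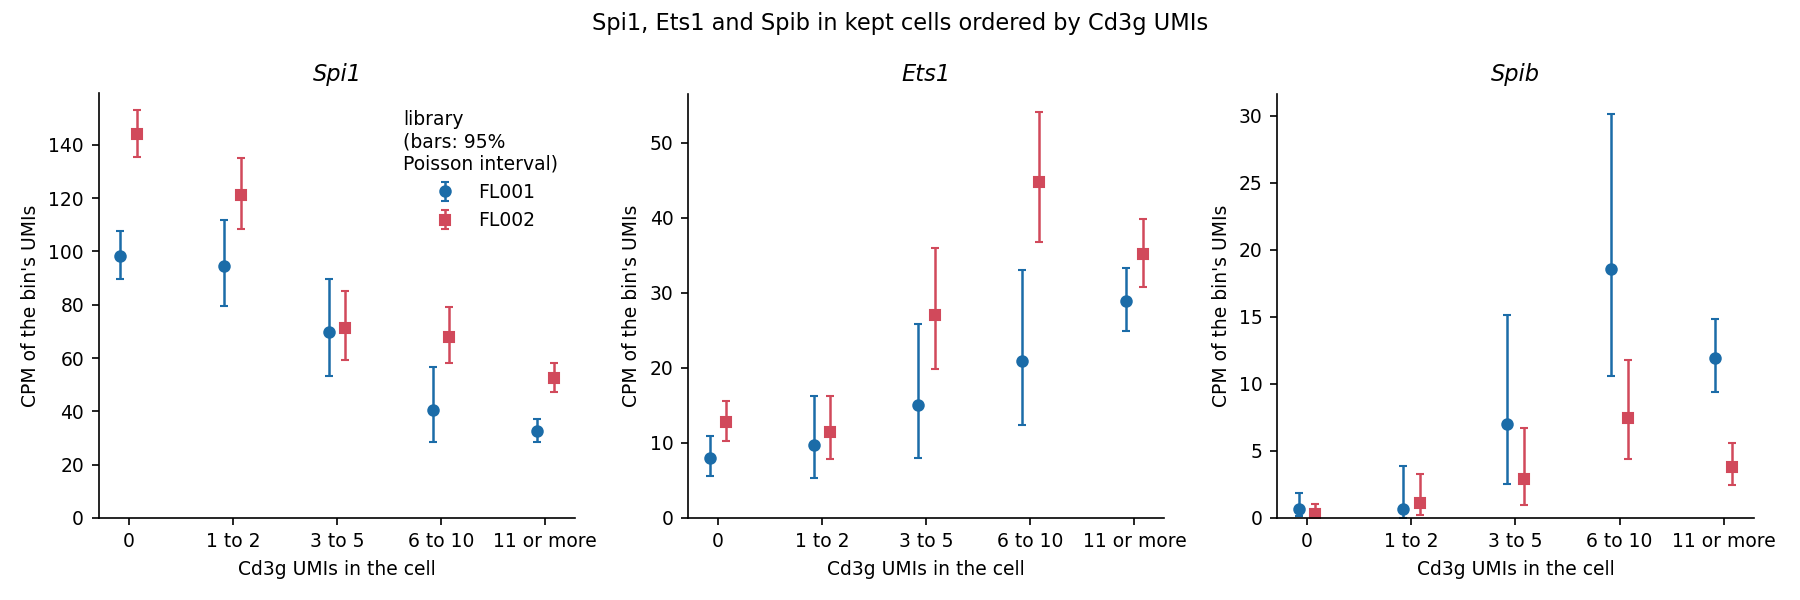
Level of *Spi1*, *Ets1* and *Spib* (y axis, CPM of the bin's UMIs, each panel on its own scale from 0) in kept cells outside the myeloid gate, binned by their *Cd3g* UMIs (x axis), for FL001 (blue circles) and FL002 (red squares), with bars for the exact 95% Poisson interval. *Spi1* goes from 98.3 and 144 CPM in cells without *Cd3g* to 32.5 and 52.5 CPM in those with 11 or more, while *Spib* is highest at 6 to 10 *Cd3g* UMIs. That bin also has the shallowest cells.

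In the myeloid gate *Spi1* exceeded the progenitor gate by 1.89 times (1.57 to 2.26) in FL001 and 2.19 times (1.85 to 2.59) in FL002. On the scale with 10 CPM added it was past 2-fold only in FL002, where 2.8% of all genes were past 2-fold higher (2.48% in FL001). *Fli1* and *Elf1*, the other Ets genes above the minimum, were not past 2-fold, where 1.09% of genes in FL001 and 2.39% in FL002 were lower. Most myeloid gate cells also met the progenitor gate, so they count on both sides of these ratios, whose intervals treat the gates as separate. Without them the progenitor gate was lower, at 110.3 CPM in FL001 and 162 CPM in FL002. The ratios and the lack of a 2-fold call in FL001 thus hold only for the gates with their shared cells. The *Spi1* level did not depend clearly on how much granule RNA a myeloid gate cell held. Cells with 20 or more granule UMIs (30 and 32 cells) were at 239 and 435 CPM, and those with fewer (29 and 27 cells) at 244 and 338 CPM. In FL001 the gate held 2 cells with 3 or more UMIs of the platelet gene *Pf4*, and neither had a *Spi1* UMI. Without them *Spi1* was at 254 CPM. *Ets1* had 4 UMIs and 1 UMI in the myeloid gates, and no fold is given.

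*Spi1* and *Ets1* were seldom found in the same cell. Over all cells that were kept, 32 in FL001 and 103 in FL002 held both, 596 and 1262 held *Spi1* only, 188 and 359 *Ets1* only, and 972 and 2376 neither. In the progenitor gate *Spi1* alone was found in 54.9% and 52.6% of cells, *Ets1* alone in 2.10% and 2.76% and both in 1.40% and 3.04%. In the *Il2ra* gate the figures were 21.8% and 21.9% for *Spi1* alone, 15.7% and 11.8% for *Ets1* alone, and 2.57% and 2.70% for both. In the commitment gate they were 12.9% and 11.8%, 23.3% and 20.4%, and 1.33% and 1.996%. Cells with neither made up 41.6% of the progenitor gate in both libraries and 62.5% and 65.9% of the commitment gate, so the pattern rests on few UMIs per cell. Most *Ets1* cells of the commitment gate held a single UMI (83 and 92 cells), with 20 and 18 at 2 UMIs and 8 and 2 at more. For *Spi1* in the progenitor gate 123 and 215 cells held 1 UMI, 64 and 100 held 2, and 54 and 88 held 3 or more.

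The number of cells with both was compared with the number expected if the 2 genes were found independently within 4 depth bins of each gate. In FL001 the ratio of found to expected was 0.30 (95% interval 0.06 to 0.86, 3 cells against 10.1) in the *Cd3g* gate without *Il2ra*, 0.62 (0.38 to 0.98, 19 against 30.4) in the *Il2ra* gate and 0.40 (0.15 to 0.87, 6 against 15.1) in the commitment gate. In these 3 gates the interval lay below 1. It was 0.48 (6 cells against 12.55) in the low *Cd3g* gate and 0.68 (6 against 8.83) in the progenitor gate, with intervals that included 1. FL002 gave 0.73 (18 cells against 24.5), 0.86 (45 against 52.1), 0.65 (10 against 15.3), 1.03 (28 against 27.1) and 0.93 (22 against 23.6) for the same gates, all with intervals that included 1. The ratio was below 1 in all 3 later gates of both libraries, but outside counting error in FL001 only, and the difference between the libraries was not tested. Of 10 alternatives the interval stayed below 1 in 6 for the *Cd3g* gate without *Il2ra*, 4 for the *Il2ra* gate and 8 for the commitment gate of FL001. In FL002 it lay below 1 in 2 of 10 for the *Cd3g* gate without *Il2ra* and in 0 for the *Il2ra* and commitment gates. With each cell counted in 1 gate only, the *Il2ra* gate was at 0.84 (0.47 to 1.38) in FL001 and 0.98 (0.70 to 1.33) in FL002, the commitment gate at 0.40 (0.15 to 0.87) and 0.66 (0.32 to 1.21), and the *Cd3g* gate without *Il2ra* at 0.40 (0.01 to 2.22, 1 cell against 2.51) and 0.88 (0.48 to 1.48). Of the 21 pairs of the 7 genes, those with at least 10 cells expected in a gate were compared, and *Spi1* with *Ets1* had the lowest median ratio among them, 0.65 over 9 combinations of gate and library. The 17 other pairs that reached 10 expected cells anywhere had no interval above or below 1. Their medians ran from 0.90 for *Ets1* with *Etv6* (5 combinations) to 1.26 for *Spib* with *Ets1*, which had a single one. The cells with both had a median of 10230 UMIs in FL001, against 9644 for *Spi1* alone and 6895 for *Ets1* alone, and 5124, 5978 and 3886 UMIs in FL002. *Xist* and a Y-linked gene, which cells of different embryos bring together, were both present in 2 of the 32 cells of FL001 (6.25%) and 6 of the 103 of FL002 (5.83%), against 4.87% and 3.41% of cells with *Spi1* only and 1.06% and 2.23% with *Ets1* only. In the commitment gate they were both in 10.3% and 6.78% of cells with *Spi1* only and 1.90% and 2.94% with *Ets1* only. Cells with *Spi1* only were also deeper there, with a median of 11646 and 5328 UMIs against 6668 and 4271.5. The *Spi1* level of that gate without cells holding both *Xist* and a Y-linked gene was not computed. The part of doublets in these cells was not tested.

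**Figure D4:**
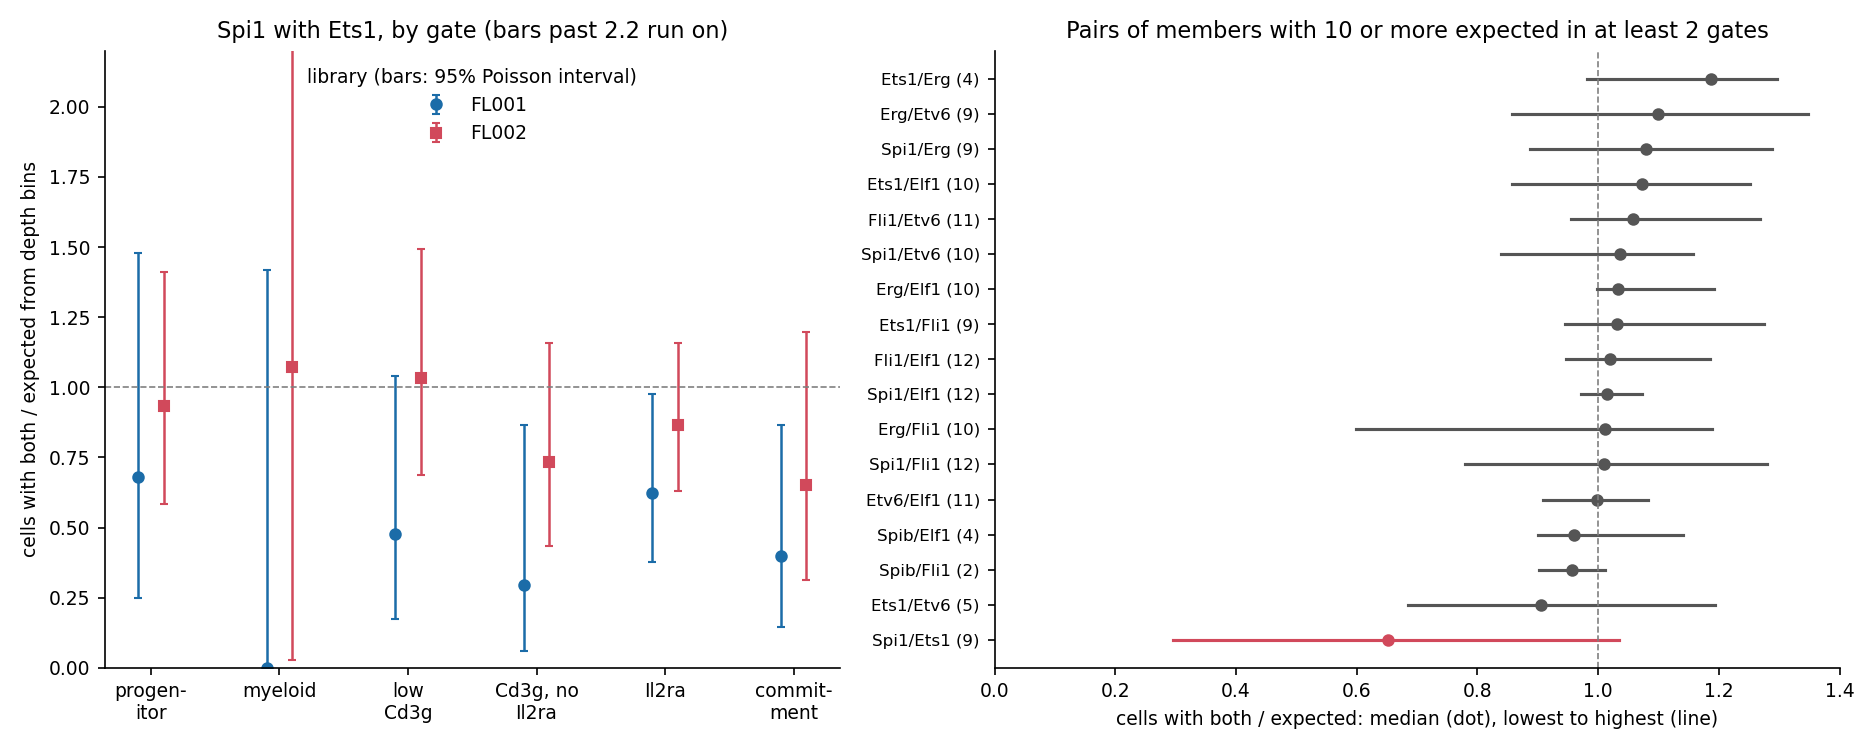
Left, cells with both *Spi1* and *Ets1* over the number expected from 4 depth bins (y axis) by gate (x axis) in FL001 (blue circles) and FL002 (red squares), with bars for the 95% Poisson interval of the found number; right, the same ratio (x axis) for pairs of the 7 genes (y axis, number of gate and library combinations in brackets), with the median as a dot and the lowest to highest as a line. *Spi1* with *Ets1* (red) has a median of 0.65, and 3 of the FL001 intervals lie below the dashed line at 1.

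Within the *Il2ra* gate, cells with *Ets1* only (116 and 197 cells) were set against cells with *Spi1* only (161 and 366 cells) by levels whose intervals did not overlap. Of 15 T-lineage genes 8 reached 50 CPM in either kind of cell in each library. Of these, 8 in FL001 and 6 in FL002 were higher in *Ets1* cells, where 9.03% and 8.37% of all genes were. Their median log2 difference was 1.04 and 0.99, against -0.03 over all genes in both libraries. *Cd3d* was at 614 against 154 CPM in FL001 and 502 against 163 CPM in FL002, and *Cd3e* at 111 against 42.1 and 133 against 43.7 CPM. *Lck* was at 410 against 146 and 279 against 146 CPM, and *Thy1*, a surface protein of T cells, at 139 against 43.7 and 119 against 48.0 CPM. *Cd3e* and *Thy1* were under 50 CPM in *Spi1* cells, so they passed the minimum only through the *Ets1* cells, in which they were higher. *Lat* and *Notch1*, the receptor of DL4, were higher in FL001 but had overlapping intervals in FL002. Of the 5 genes of the *Spi1*-linked myeloid list that reached 50 CPM, 2 were lower in *Ets1* cells in each library, where 9.96% and 8.77% of all genes were. These were *Mpo*, the neutrophil peroxidase, at 22.3 against 208 CPM and 29.2 against 118 CPM, and *Tyrobp*, a signaling adaptor of myeloid and NK cells, at 63.5 against 210 and 142 against 272 CPM. *Mpo* was under 50 CPM in *Ets1* cells, so it passed the minimum only through the *Spi1* cells. Myeloid gate cells were among those compared, 5 of the *Spi1* cells and 1 of the *Ets1* cells in FL001, and 2 and 0 in FL002. *Mpo* is also present in the free RNA. The part of these cells and of free RNA in the difference was not tested. Of 15 genes of partners of PU.1, 9 in FL001 and 10 in FL002 reached 50 CPM. In *Ets1* cells 0 and 2 of these were higher and 2 and 1 lower, with a median log2 difference of -0.02 and 0.14. Of all genes 9.03% and 8.37% were higher and 9.96% and 8.77% lower. *Lyl1*, one of these partners and a factor of early progenitors, was lower in *Ets1* cells (111 against 174 and 128 against 181 CPM). *Tcf7* (283 against 267 and 407 against 364 CPM) and *Gata3* (75.7 against 88.4 and 107 against 76.7 CPM), both factors of early T cells, had overlapping intervals. *Bcl11b*, one of the commitment gate's genes, was at 114 and 64.5 CPM in *Ets1* cells and 14.0 and 9.42 CPM in *Spi1* cells. *Fli1* (63.5 against 49.6 and 80.4 against 59.9 CPM) and *Elf1* (166 against 129 and 135 against 158 CPM) had overlapping intervals. Cells with *Spi1* were deeper, with a median of 10496 and 5922.5 UMIs against 7346 and 3850 UMIs.

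**Figure D5:**
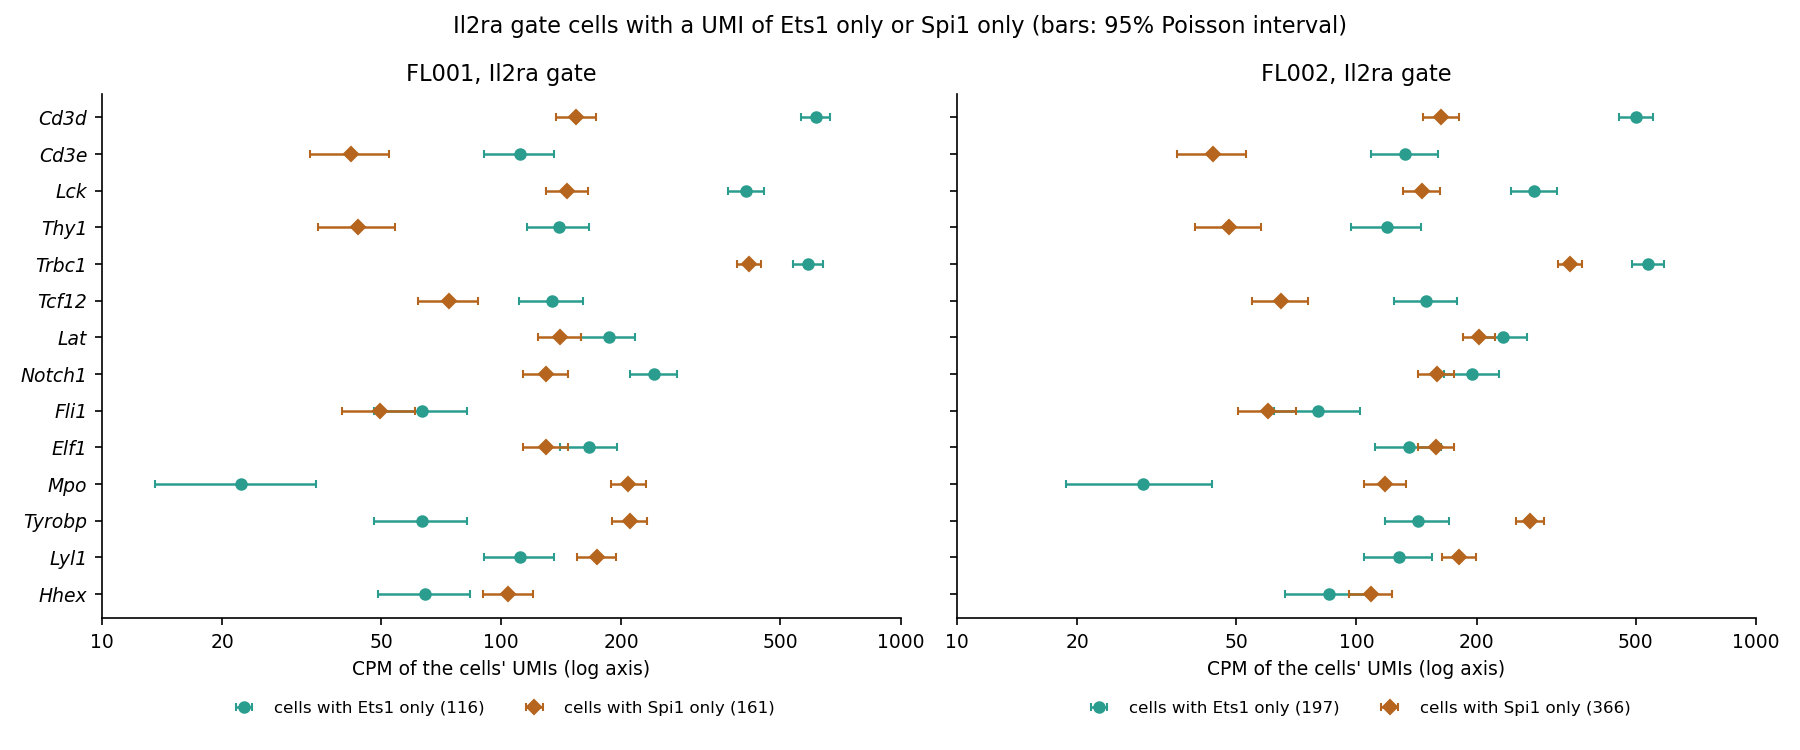
Level of 14 genes (y axis) in CPM of the cells' UMIs (x axis, log scale) in *Il2ra* gate cells with *Ets1* and no *Spi1* (green circles) and with *Spi1* and no *Ets1* (brown diamonds), for FL001 (left) and FL002 (right), with bars for the exact 95% Poisson interval. *Cd3d* lies at 614 and 502 CPM in *Ets1* cells against 154 and 163 CPM in *Spi1* cells, and *Mpo* at 22.3 and 29.2 CPM against 208 and 118 CPM.

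The genes that PU.1 is known to regulate or to work with moved in different ways between the progenitor and commitment gates. Of 20 *Spi1*-linked myeloid genes 6 in FL001 and 7 in FL002 reached 50 CPM, with 4 and 3 past 2-fold lower in the commitment gate and 1 past 2-fold higher in each. Of all genes 3.75% and 3.05% were lower and 5.71% and 5.38% higher. All 6 and 7 were at 50 CPM or more in the progenitor gate, but only 3 and 4 in the commitment gate. The others passed the minimum through the gate in which they were higher. *Mpo* (log2 difference -5.60 and -4.04) and *Irf8*, a factor of monocytes and dendritic cells (-3.13 and -2.57), were lower, and *Fcer1g*, a signaling chain of Fc receptors, was higher (1.30 and 1.22). The list's median was -1.23 and -0.96, against -0.02 over all genes in both libraries. Of 15 partner genes 10 reached the minimum, with 2 and 3 higher and 2 and 2 lower. Of these 10, 8 and 8 were at 50 CPM or more in the progenitor gate and 8 and 9 in the commitment gate. *Tcf7* (2.91 and 3.06) and *Gata3* (2.34 and 2.37) were higher, and *Jun* (-2.70 and -2.72) and *Hhex*, a factor of early progenitors (-1.45 and -1.41), were lower. *Runx1*, a Runx factor needed for T and stem cells, differed by 0.10 and 0.61, and the median of the list was -0.11 and -0.06. In the myeloid gate 6 of 10 *Spi1*-linked genes in FL001 and 8 of 11 in FL002 were past 2-fold above the progenitor gate, where 2.48% and 2.8% of all genes were. Only 6 and 7 of the list were at 50 CPM or more in the progenitor gate. The others passed the minimum through the myeloid gate, in which they were higher. Of 15 T-lineage genes 10 and 9 passed the minimum and all of these were past 2-fold higher in the commitment gate, led by *Cd3d* (5.55 and 5.02) and *Thy1* (3.55 and 3.40), with a median of 2.78 and 3.09. Only 4 and 3 of them were at 50 CPM or more in the progenitor gate too, so the others passed through the gate in which they were higher. Of 9 stem cell genes 5 of 6 and 4 of 5 were past 2-fold lower, with *Cd34* at -3.57 and -3.64 and *Kit*, the receptor used in the sort, at -0.49 and -0.53 (median -2.59 and -2.27). Of 8 megakaryocyte genes 2 in FL001 and 1 in FL002 passed the minimum and were past 2-fold lower, among them *Pf4* at -5.79 and -4.72 (median -4.15 and -4.72). The stem cell and megakaryocyte genes passed the minimum through the progenitor gate alone.

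The other Ets family genes whose levels are given here differed less between the progenitor and commitment gates than *Spi1*, *Ets1* and *Spib*. Of 19 others 1 in FL001 and 2 in FL002 reached 50 CPM, and none of these was past 2-fold (median log2 difference -0.41 and -0.55). Of all genes 3.75% and 3.05% were lower and 5.71% and 5.38% higher, so these few calls do not set the others apart. *Spib* in both libraries and *Ets1* in FL001 were under the same minimum. *Elf2*, a relative of *Elf1*, was at 65.6 CPM in the progenitor and 46.7 CPM in the commitment gate of FL001 and at 65.9 and 49.4 CPM in FL002. *Elk3*, a ternary complex factor, was at 46.4 and 25.7 CPM in FL001 and 56.0 and 29.6 CPM in FL002. *Elk4*, of the same subfamily, ran the other way, with 21.9 and 33.0 CPM in FL001 and 21.9 and 41.4 CPM in FL002. *Gabpa* was at 22.4 and 14.5 CPM in FL001 but at 19.3 and 23.2 CPM in FL002. *Elf4*, *Etv3*, *Ets2* and *Erf* stayed between 5.60 and 18.7 CPM in these gates. *Elf3*, *Elf5*, *Ehf* and *Spdef*, which are made mainly by epithelia, had 0 UMIs in every gate of both libraries.

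Over the 12 combinations of gate and library, *Spi1* and *Ets1* ran against each other (Pearson r = -0.887 between log2 CPM with 10 added), and *Spib* ran with *Ets1* (0.797) and against *Spi1* (-0.856) and *Fli1* (-0.857). *Erg* ran with *Elf1* (0.888), as did *Etv6* (0.818). These are descriptions over 12 points that share cells between gates and a library among 6 points each. Among 3408 genes of at least 50 CPM in a gate of both libraries, the closest to *Spi1* were *Pak1* (0.969), *Alox5ap* (0.964), *Ramp1* (0.963), *Mpo* (0.961) and *2610001J05Rik* (0.961). The closest to *Ets1* were *Ddx3x* (0.978), *Myl10* (0.976), *Igf2* (0.973), *Zfp800* (0.971) and *Uaca* (0.969), and to *Spib* they were *Fdx1* (0.987), *Serbp1* (0.968) and *Fabp4* (0.956). *Cers2* (0.921), *Tmem176a* (0.916) and *Eif2a* (0.906) were nearest to *Erg*, and *Ebi3* (0.957), *Bin2* (0.906) and *Fam107b* (0.905) to *Fli1*. For *Etv6* they were *Cnn3* (0.947), *Zfp36l2* (0.930) and *Afap1l1* (0.907), and for *Elf1* *Zfp422* (0.962), *Bcl11a* (0.960) and *H3f3a* (0.952).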

How the data were processed

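Single-cell transcriptomes (10X Chromium) of 2 libraries were deposited by the authors as raw UMI counts per gene and barcode. The study names CellRanger, and the submitters' processing notes name build mm9; other settings are not given in the sources used here. Barcodes with at least 1500 UMIs, 500 genes and at most 10% mitochondrial UMIs were kept. Gates were set on raw UMIs. UMIs were summed per gate and library, with exact Poisson or binomial 95% intervals. With 1 library per group no test across genes was run, and calls between gates rest on a fixed size of 2-fold. Expected co-detection was computed in 4 depth bins per gate. For thinned shares each cell was drawn down to 1500 UMIs. Doublets were not removed: Scrublet marked 0.336% and 0.220% of cells, too few to count as having worked, so leaving out the 5% of cells with the highest scores was an alternative. Genes named are the 7 Ets genes, the gate genes, other Ets genes of at least 10 CPM, those of each list with the largest and smallest difference between the commitment and progenitor gates, and those most like each Ets gene. Genes of the lists named for cells with *Ets1*, *Spi1* or *Spib*, and *Cd79b*, *Fdx1*, *Fabp4* and *Ptcra* for cells with *Spib*, were picked after their values were seen. The 7 genes, gates and lists were chosen with earlier results of these data known. The computation was tested on simulated data. Python 3.11.15, numpy 2.4.6, scipy 1.17.1, pandas 2.3.3, scanpy 1.11.5 and matplotlib 3.10.9 were used.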

Additional observations from a re-analysis of the deposited data

Results flagged for a closer look

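Barcodes with more than 100 and fewer than 1500 UMIs were left out of the comparisons (376 in FL001 and 340 in FL002), and 33.3% and 22.5% of their UMIs were mitochondrial, against 3.58% and 3.59% in the cells that were kept. Some Ets genes were higher there than in the cells that were kept. In FL001 *Fli1* was at 121 CPM (22 UMIs, interval 75.5 to 182), against 60.4 CPM in kept cells. In FL002 *Ets1* was at 91.7 CPM (19 UMIs, interval 55.2 to 143), against 24.3 CPM, and *Spib* at 19.3 CPM, on 4 UMIs, against 2.54 CPM. *Spi1* was lower there than in kept cells in both libraries, with intervals apart. It was at 27.4 CPM (5 UMIs, interval 8.89 to 63.9) against 70.4 CPM in FL001. In FL002 it was at 19.3 CPM (4 UMIs, interval 5.26 to 49.4) against 102 CPM.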

How the results depend on the processing

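No paired analysis was possible because each library is 1 sample and no group has replicates. In every alternative run, in both libraries, *Spi1* was lower and *Ets1* and *Spib* were higher in the commitment gate than in the progenitor gate, and *Erg*, *Fli1*, *Etv6* and *Elf1* were lower. A minimum of 2500 UMIs, at most 5% mitochondrial UMIs, leaving out the shared barcodes or the cells with the highest Scrublet scores, and an expected count with no depth bins left the levels of *Spi1* and *Ets1*, their shares of UMIs and their co-detection within the intervals of the values reported. Over all alternatives, 27 of 430 levels of the other 5 genes, 36 of 192 of *Spi1* and *Ets1*, 122 of 588 shares of cells and 8 of 114 co-detection ratios moved past their intervals. So did 14 of 72 *Spi1* shares of the summed *Spi1* and *Ets1* UMIs, 10 of them with gates on thinned UMIs. Of 216 results on 2-fold calls 23 moved and 0 reversed. The co-detection ratio stayed below 1 under every alternative in the *Cd3g*, *Il2ra* and commitment gates of both libraries. In FL001 the interval reached 1 in all 3 of these gates with each cell thinned (to 6.56, 2.38 and 9.03) and with gates on thinned UMIs (to 1.12, 1.45 and 1.07). It also did in the *Cd3g* gate without *Il2ra* and the *Il2ra* gate with each cell in 1 gate (to 2.22 and 1.38) and without the cells of the highest Scrublet scores (to 1.02 and 1.002), and in the *Il2ra* gate with at most 5% mitochondrial UMIs (to 1.07) or without myeloid gate cells (to 1.01). In FL002 the interval lay below 1 only in the *Cd3g* gate without *Il2ra*, with each cell thinned (to 0.71) and with no depth bins (to 0.97). With each cell in 1 gate, *Spi1* in the progenitor gate was at 109 CPM in FL001 and 164 in FL002, and with myeloid gate cells left out, an alternative chosen after seeing the data, at 110.3 and 162 CPM. In FL001, gates set on UMIs thinned to 1500 gave *Ets1* at 0 CPM in the progenitor gate, a *Spi1* share of the summed UMIs of 100% there and 17.1% in the commitment gate, *Spi1* at 14.3 and *Ets1* at 69.4 CPM in the commitment gate, and 5.77% and 30.1% of its cells with *Spi1* and *Ets1*. In FL002 they gave *Spi1* at 151 CPM in the progenitor gate, shares of 91.4% and 30.3%, and in the commitment gate *Spi1* at 30.4 and *Ets1* at 70.0 CPM, with 8.33% of cells holding *Spi1*. The mean of each cell's CPM in the commitment gate was 17.7 for *Spi1* and 51.6 for *Ets1* in FL001 and 67.1 for *Ets1* in FL002. Thinned cells held *Spi1* in 1.55% and 6.59% and *Ets1* in 7.98% and 11.2% of the commitment gate, and the co-detection ratio in the *Il2ra* gate of FL001 was then 0, since no cell held both. With a minimum of 20 CPM, 310 genes were past 2-fold higher and 218 lower in the commitment gate of FL001, and 300 and 183 in FL002, against 195, 128, 180 and 102. Depth limits *Ets1* and *Spib* most, as single UMIs carry their values, and 2 libraries without replicates leave the spread between samples unknown.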
